A study of Saccharomyces cerevisiae with 6 samples.

Results

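The mitochondrial protein import machinery was examined as 33 genes of budding yeast, out of 5449 genes measured in the series. They were taken by name from the array annotation: subunits of the outer membrane translocase (TOM), the outer membrane sorting complex (SAM), the small TIM chaperones, the inner membrane translocases TIM22 and TIM23, the import motor, the matrix processing peptidase, the disulfide relay and the insertase OXA1. All 33 were measured, and each is represented by 1 probe set. Each gene was compared between 3 control arrays and 3 zymolyase arrays, so the question was how the import genes differed between cells lysed after wall digestion and cells that were not digested.

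Total RNA came from cells labelled BY4743, a diploid laboratory strain carrying the markers his3Δ1, leu2Δ0, ura3Δ0, lys2Δ0 and met15Δ0 and labelled MATa/α. Cells of all 6 samples grew for 2 days at 25 °C in YPD, a rich medium, with the detergent SDS at 0.01%, so the controls carried the detergent too. Control samples had no enzyme and were extracted with the FastRNA Pro Red kit. Zymolyase samples were held with zymolyase, which digests wall glucan, for 20 min at 25 °C and were extracted with the MagExtractor kit, so enzyme and kit changed together and their parts in any difference cannot be told apart. The labels name no separate cultures for the 3 samples of a group, so each p-value rests on the spread among these 3 and 3 samples alone, and that spread may be technical.

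Nearly all mitochondrial proteins are encoded in the nucleus and made in the cytosol. The TOM complex is the entry gate for most of them: receptors bind the precursors and the TOM40 pore lets them through. From there SAM builds barrel proteins into the outer membrane, small TIM chaperones carry hydrophobic proteins across the space between the membranes, TIM22 inserts metabolite carriers, TIM23 and its motor drive proteins with a presequence into the matrix, and MIA40 with ERV1 traps cysteine-rich proteins by oxidising them. In yeast many of these subunits are essential for growth.

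The measurements were bright and the arrays had been scaled alike. The median gene read 552.0 to 600.8 on control and 629.7 to 677.6 on zymolyase arrays. Import genes had signals from 170.7 (ERV1) to 5633 (TIM10), and all 33 lay above the background of 8.3 to 10.9 on every array, which was the 95th percentile of the probe sets for the array's second yeast species. The 24 probe sets of that species that carry an import gene's name, such as tom40 and tim23, had signals of 0.1 to 14.9. Against the diploid label, the 4 alpha-specific mating genes lay above the median gene on every array while the 7 a-specific genes and 7 sporulation genes lay below it, in both groups. Summed signals were 12320 to 15105 in the controls and 9813 to 16822 after zymolyase for the alpha-specific genes, 206.6 to 255 and 244 to 402 for the a-specific genes, and 357 to 458 and 442 to 472 for the sporulation genes. Their part in the results below was not tested. On the zymolyase arrays the 3′ probe sets of 8 yeast control genes were brighter relative to the 5′ ones, by 1.74 on the log2 scale (0.85 ± 0.24 in control, 2.60 ± 0.35 in zymolyase arrays, SD, n = 3, exact two-sided permutation p = 0.1, the smallest that 3 against 3 can give). The 8 genes include URA3, which the strain label gives as deleted, so its ratio may rest on background signal. The mean ratio was higher in zymolyase than in control arrays for each of the 8. In bulk RNA, fewer cells of a kind and less RNA per cell cannot be told apart.

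Import genes changed in both directions. With limma, p-values adjusted by Benjamini-Hochberg across the 5449 genes and a threshold of 0.05, 6 import genes rose, 9 fell and 18 did not pass. TOM71, TIM13, TIM23, TIM50, MIA40 and OXA1 rose. TOM20, TOM22, TOM40, TOM6, TOM7, TIM9, TIM21, PAM18 and ERV1 fell. Over all genes 22.5% rose and 20.0% fell, 42.5% in all, so the count of 15 among 33 (45.5%) lay near the background. TOM22, ERV1, PAM18 and TOM40 fell at least 2-fold, 4 of the 33, where 8.55% of all genes did. None of the rises reached 2-fold, where 9.82% of all genes did, though TIM23 came close at 1.97-fold. With the trend of change on coding length removed, TIM23 changed by 1.28 and TOM22 by -1.34 on the log2 scale. The control and zymolyase values did not overlap in 20 of the 33 genes (60.6%), against 52.9% of all genes. The median log2 change was -0.11, against 0.04 for all genes, and the central part of the import genes ran from -0.42 to 0.23 (quartiles), that of all genes from -0.48 to 0.57.

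The split between rises and falls depended on how arrays were scaled. When arrays were centred on their medians every change fell by 0.16 on the log2 scale, and 3 import genes rose and 12 fell, with 17.5% and 26.8% of all genes doing so. After quantile normalization 5 rose and 12 fell (21.2% and 22.8% of all genes). The 15 called import genes kept their sign under both scalings. With the replicate number as a block 8 rose and 10 fell (31.2% and 27.3% of all genes).

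**Figure D1:**
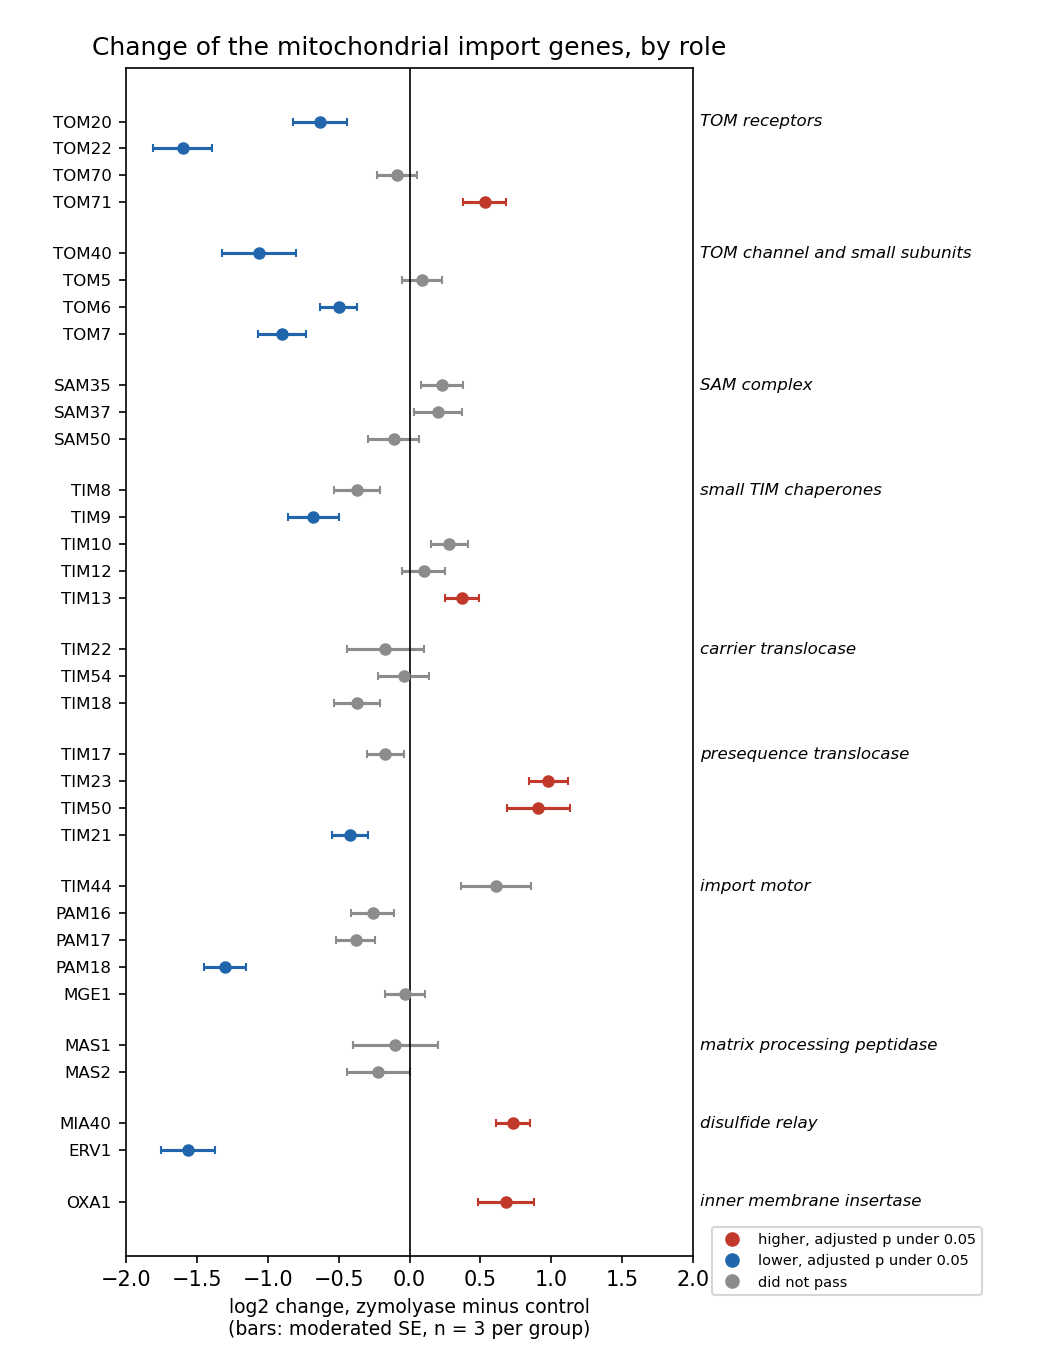
Log2 change (zymolyase minus control, horizontal axis) of the 33 import genes grouped by role, with bars for the moderated standard error (n = 3 arrays per group) and colour for the call. Rises and falls stand side by side within the TOM receptors, the small TIM chaperones, the presequence translocase and the disulfide relay, from -1.60 for TOM22 to 0.98 for TIM23. Only in the disulfide relay did both a rise and a fall keep their calls under all 17 alternatives.

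Among the receptors of the TOM complex, TOM22 and TOM20 fell, TOM71 rose and TOM70 did not pass. TOM22 and TOM20 bind presequences, TOM70 binds hydrophobic precursors such as carriers, and TOM71 is the paralog of TOM70. TOM22 had signals of 2406, 2241 and 2056 on control arrays 1, 2 and 3, and of 999.6, 606 and 658 on zymolyase arrays 1, 2 and 3. Every zymolyase value lay far below every control value, and the fall was 3.03-fold (log2 change -1.60, SE 0.21, adjusted p = 0.00135). This was the largest change of the 33, and its call held under all 17 alternatives (adjusted p from 1.13e-08 to 0.00881). TOM20 went from 1608 ± 118 to 1057 ± 226 (mean ± SD, n = 3), without overlap (log2 change -0.63, SE 0.19, adjusted p = 0.0281). Its call was lost with the trend of change on coding length removed (log2 change -0.33, adjusted p = 0.192), and without any of control arrays 1, 2 and 3 and zymolyase arrays 2 and 3 (0.0549 to 0.077), in a range of 0.000556 to 0.192 over the alternatives.

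The paralogs TOM70 and TOM71 parted. TOM70 had signals of 2452.5, 2505 and 2724 on the control arrays and 2684, 2204.5 and 2363 on the zymolyase arrays. These groups overlapped, and the change did not pass (log2 change -0.09, SE 0.14, adjusted p = 0.641). TOM71 had 753.7, 639 and 642 on the control arrays and 1072, 881 and 985.5 on the zymolyase arrays. All of its zymolyase values were the higher ones, a 1.44-fold rise (log2 change 0.53, SE 0.15, adjusted p = 0.0238). The call of TOM71 did not survive the omission of control array 2 (0.0911), control array 3 (0.087) or zymolyase array 3 (0.0817), after median centring (0.0655) or quantile normalization (0.0553), and with the length trend removed (0.153), in a range of 0.00238 to 0.153.

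The pore and its small partners fell, with the exception of TOM5. TOM40, the channel of the complex, had signals of 2251, 1863 and 1581 on the control arrays and 1234, 621 and 952 on the zymolyase arrays. The arrays numbered 1 were the highest of each group, and the groups did not overlap. The fall was 2.09-fold (log2 change -1.06, SE 0.26, adjusted p = 0.0138, at most 0.0437 over the alternatives). TOM7, which modulates the assembly of the complex, had 2701, 3068 and 2864 on the control arrays and 1859, 1286 and 1517 on the zymolyase arrays. That was a 1.87-fold fall without overlap (log2 change -0.90, SE 0.17, adjusted p = 0.00443). TOM6, which stabilises the complex, fell 1.41-fold from 3275 ± 192 to 2321 ± 204 (adjusted p = 0.0188, and 0.0524 to 0.0707 on leaving out control array 2 or 3, or zymolyase array 2 or 3, in a range from 0.00567). TOM5, which passes precursors on to the pore, had signals of 1875 to 2064 in the controls and 1883 to 2265 after zymolyase (log2 change 0.09, SE 0.14, adjusted p = 0.611).

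The 3 subunits of the SAM complex did not pass by limma (0 at an unadjusted p under 0.05). SAM50 is the core that folds barrel proteins, and SAM35 and SAM37 assist it on the cytosolic side. SAM35 stood at 882, 738.5 and 745 in the controls and at 959, 830 and 982 after zymolyase. SAM37 stood at 527.5, 643 and 678 in the controls and at 598.5, 727 and 799 after zymolyase. Both overlapped between groups (log2 changes 0.23 and 0.20, SE 0.15 and 0.17, adjusted p = 0.251 and 0.393). With the length trend removed SAM35 passed at 0.39 (adjusted p = 0.0496, in a range of 0.0324 to 0.711 over the alternatives). SAM37 passed with that trend removed and the replicate block together (log2 change 0.37, adjusted p = 0.0337, in a range to 0.883). SAM50 changed by -0.11 (SE 0.18).

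The small TIM chaperones differed among themselves although they act as pairs. Tim9 with Tim10, and Tim8 with Tim13, form ring-shaped hexamers that shield hydrophobic precursors, and Tim12 docks such a ring on the TIM22 complex. TIM9 had signals of 2772, 3164 and 3212.5 on the control arrays and 2361, 1521 and 1915 on the zymolyase arrays. It fell 1.60-fold without overlap (log2 change -0.68, SE 0.18, adjusted p = 0.0194), and its call was lost when control array 2 or 3, or zymolyase array 2 or 3, was left out (0.0582 to 0.067, in a range from 0.000116). TIM13 stood at 1568, 1571 and 1450 in the controls and at 2014, 1916 and 1985 after zymolyase. Its replicates were tight and apart, a 1.29-fold rise (log2 change 0.37, SE 0.12) close to the threshold at adjusted p = 0.0458. The call of TIM13 was lost without any one of the 6 arrays (0.06 to 0.151), after median centring (0.246), with all probe sets tested together (0.101) and without an intensity trend (0.0562), in a range of 0.00735 to 0.246. TIM10, TIM12 and TIM8 had log2 changes of 0.28, 0.10 and -0.37 and did not pass (adjusted p = 0.127, 0.622 and 0.0966). TIM10 did not overlap between groups, with at most 4691.5 in control and at least 4844.5 in zymolyase arrays. It passed with the replicate number as a block (adjusted p = 0.0259), after quantile normalization (0.00658) and with the length trend removed (0.0452), in a range to 0.601. TIM8 passed after median centring (0.0346), quantile normalization (0.0474) and without control array 1 (0.0325), in a range of 0.00186 to 0.277.

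The carrier translocase was not called at any subunit by limma (0 of 3 at an unadjusted p under 0.05). TIM22, its channel, stood at 338.5, 186 and 212 in the controls and at 267, 175 and 201 after zymolyase. TIM18, a membrane subunit, stood at 700.3, 514 and 547 in the controls and at 450, 435 and 463 after zymolyase. TIM22 was highest on the arrays numbered 1 and overlapped between groups, whereas TIM18 did not overlap (log2 changes -0.17 and -0.37, SE 0.27 and 0.16, adjusted p = 0.648 and 0.102). TIM18 passed after median centring (adjusted p = 0.0218) and quantile normalization (0.0289), in a range of 0.0218 to 0.768 over the alternatives. TIM54 changed by -0.04 (SE 0.18).

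In the presequence translocase the channel subunit TIM23 and the receptor TIM50 rose together, while TIM17, the other channel subunit, did not pass. TIM23 had signals of 1045, 1173 and 1171 on the control arrays and 2047, 2372 and 2254 on the zymolyase arrays. Each zymolyase value was well above every control value, a 1.97-fold rise (log2 change 0.98, SE 0.14, adjusted p = 0.00171), which was the largest rise of the 33. TIM50, which receives presequences from the TOM complex, stood at 579, 801 and 739 in the controls and at 998, 1516 and 1513 after zymolyase. The arrays numbered 1 were the lowest of each group and the groups did not overlap, a 1.88-fold rise (log2 change 0.91, SE 0.22, adjusted p = 0.0114). The calls of TIM23 and TIM50 held under all 17 alternatives. The adjusted p of TIM23 was at most 0.0108. That of TIM50 reached 0.0487, close to the threshold, without zymolyase array 2. TIM17 stood at 2469, 2668 and 2534 in the controls and at 2396, 2019 and 2398 after zymolyase, without overlap (log2 change -0.17, SE 0.13, adjusted p = 0.329). TIM21, which links the translocase to the respiratory chain, fell 1.33-fold from 979 ± 20.1 to 734 ± 39.5 (adjusted p = 0.0353). Its call was lost with the length trend removed (log2 change -0.12, adjusted p = 0.436), with all probe sets tested together (0.0688) and without control arrays 1, 2 or 3 or zymolyase arrays 2 or 3 (0.0549 to 0.106), in a range from 0.00888.

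Of the import motor, which pulls precursors into the matrix with the mitochondrial Hsp70, only the J protein gene PAM18 was called. PAM18, the co-chaperone that stimulates the Hsp70, had signals of 795, 829 and 889 on the control arrays and 349, 307 and 366 on the zymolyase arrays. The groups lay far apart, a 2.46-fold fall (log2 change -1.30, SE 0.15, adjusted p = 0.00108, at most 0.00794 over the alternatives). PAM17 stood at 1024, 1118 and 1075 in the controls and at 869, 761 and 852 after zymolyase, without overlap (log2 change -0.38, SE 0.14, adjusted p = 0.0556). PAM17 passed with the replicate block (adjusted p = 0.04), after median centring (0.0156) and quantile normalization (0.0172), in a range of 0.00875 to 0.676. TIM44, the anchor of the motor on the channel, stood at 901, 563 and 568 in the controls and at 1319, 835 and 925.5 after zymolyase, each array 1 the highest of its group (log2 change 0.61, SE 0.25, adjusted p = 0.0833). TIM44 passed with the replicate block (adjusted p = 0.00513) and without control array 1 (0.0158), in a range of 0.00067 to 0.23. PAM16, the partner of PAM18, and MGE1, the nucleotide exchange factor of the Hsp70, changed by -0.26 (SE 0.15) and -0.03 (SE 0.14).

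The matrix processing peptidase, which cuts off presequences, was not called by limma (0 of 2 at an unadjusted p under 0.05). MAS1, its catalytic subunit, stood at 903, 419.5 and 498 in the controls and at 653, 440 and 529 after zymolyase. MAS2, which binds the presequence, stood at 849, 537 and 569 in the controls and at 622, 461 and 570 after zymolyase. Both genes were highest on the arrays numbered 1 in both groups, and the groups overlapped (log2 changes -0.10 and -0.22, SE 0.30 and 0.22, adjusted p = 0.804 and 0.441).

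The disulfide relay changed in opposite directions. MIA40, the oxidoreductase that binds incoming proteins, had signals of 1552, 1444 and 1432 on the control arrays and 2495.5, 2366 and 2461 on the zymolyase arrays. ERV1, the sulfhydryl oxidase that reoxidises Mia40, had 439, 580.2 and 640.2 on the control arrays and 208, 171 and 179 on the zymolyase arrays. Neither gene overlapped between groups. MIA40 rose by a log2 change of 0.73 (SE 0.12, adjusted p = 0.00339) and ERV1 fell 2.95-fold (log2 change -1.56, SE 0.19, adjusted p = 0.00112). Both calls held under all 17 alternatives, up to adjusted p = 0.0191 for MIA40 and 0.00832 for ERV1.

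OXA1, the insertase of the inner membrane for proteins made in the matrix, had signals of 718, 461 and 475 on the control arrays and 862, 853 and 874 on the zymolyase arrays. Control array 1 was the control nearest to the zymolyase arrays, but the groups did not overlap. The rise was 1.60-fold (log2 change 0.68, SE 0.20, adjusted p = 0.0256). Its call was lost on omitting control array 2 (0.0966), control array 3 (0.0934), zymolyase array 2 (0.0714) or zymolyase array 3 (0.0778), after median centring (0.0509) and under quantile normalization (0.0545), with 2.67e-05 as the lowest.

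**Figure D2:**
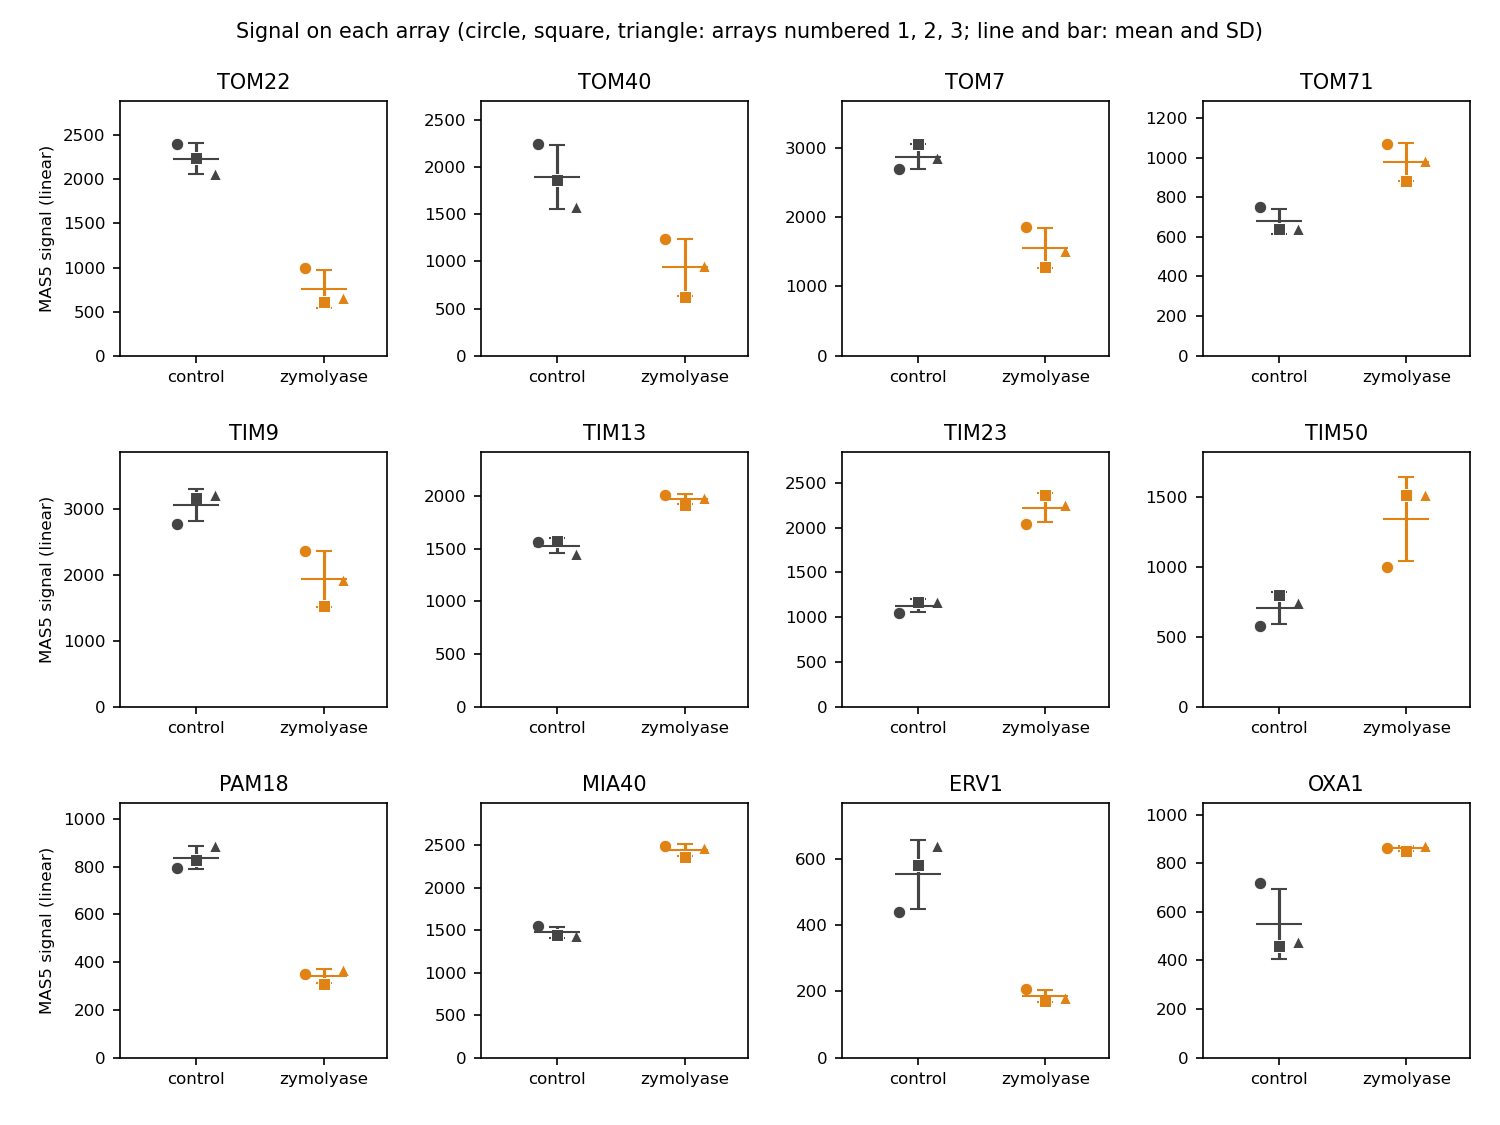
MAS5 signal on a linear axis from 0 for 12 import genes in the 3 control and 3 zymolyase arrays, with circle, square and triangle for arrays numbered 1, 2 and 3 and lines for mean and SD. The 12 were picked from the 15 called genes, none of which overlaps between groups. ERV1 lies at 171 to 208 in zymolyase against 439 to 640.2 in control arrays. Of all 33 import genes 20 (60.6%) do not overlap, against 52.9% of all genes.

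Within an array, the ratio of the signals of 2 partners does not depend on a single factor applied to the whole array. Quantile normalization moves genes by different amounts and can change it. Under it the log2 change of TOM71 went from 0.53 to 0.40 and that of TOM70 from -0.09 to -0.02. The ratios below are of the signals as deposited. Ratios were taken for 7 pairs that act together or are paralogs, chosen with the changes above known, so they are given as a description without a test. The log2 ratio of MIA40 to ERV1 was 1.82, 1.32 and 1.16 on the control arrays and 3.59, 3.79 and 3.78 on the zymolyase arrays. It rose from 1.43 ± 0.35 to 3.72 ± 0.12 (mean ± SD, n = 3), a difference of 2.29 (SE 0.21), the widest of the 7. The ratio of TIM23 to TIM17 differed by 1.15 (SE 0.14), from -1.18 ± 0.06 to -0.03 ± 0.24. The ratio of PAM16 to PAM18, whose products form a dimer, differed by 1.04 (SE 0.10), from 0.09 ± 0.12 to 1.13 ± 0.13.

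The chaperone pairs behaved in the same way. TIM10 over TIM9 differed by 0.96 (SE 0.26) and TIM13 over TIM8 by 0.74 (SE 0.16), and TOM71 over TOM70 by 0.62 (SE 0.12). In these 6 pairs the control and zymolyase ratios did not overlap. How often the ratios of other gene pairs do not overlap was not computed. Of all single genes 52.9% did not overlap. The 2 subunits of the processing peptidase were the exception: MAS2 over MAS1 was 0.15 ± 0.23 in control and 0.03 ± 0.09 in zymolyase arrays, with overlap.

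**Figure D3:**
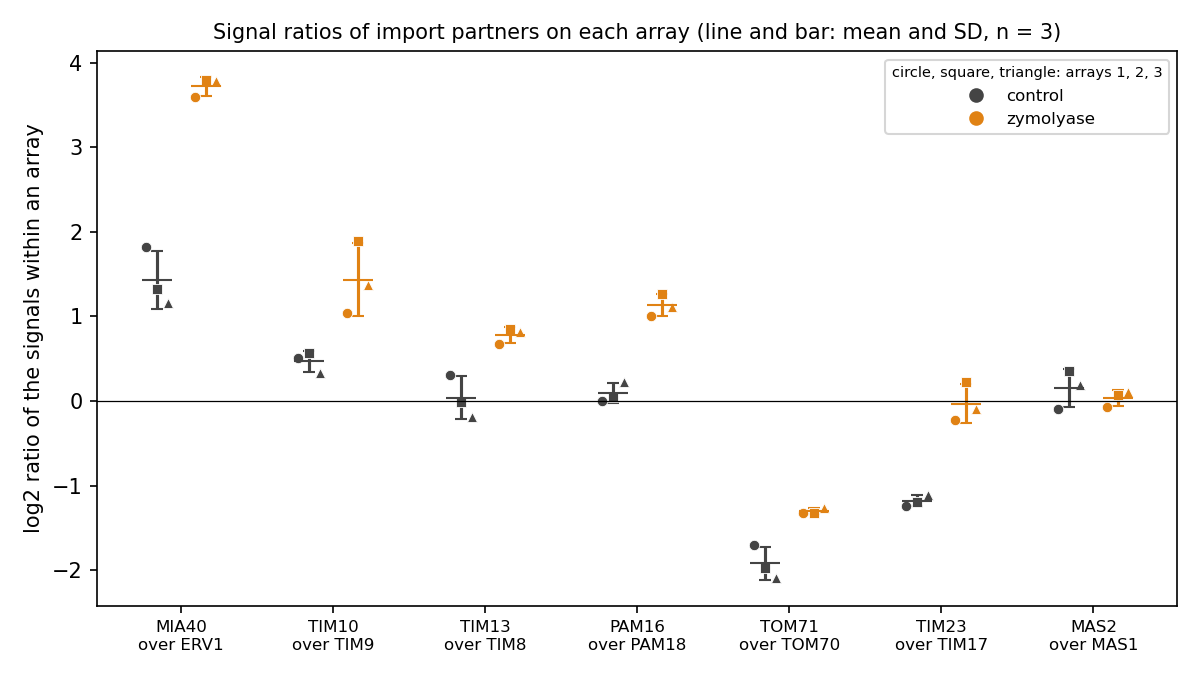
Log2 ratio of the signals of 7 pairs of import genes within each array (control in grey, zymolyase in orange, lines and bars for mean and SD, n = 3). The ratios of 6 pairs are apart between the groups, by 0.62 to 2.29, and those of MAS2 over MAS1 overlap. The pairs were chosen with the changes known, and no share for other gene pairs was computed.

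Import genes are short, and shorter ones tended to be lower in the zymolyase arrays. Their median coding length was 653 bases (153 for TOM5 to 1920 for TOM71), against 1236 for all genes. The length of ERV1, 653 bases, is that of the whole annotated gene and is not a multiple of 3. Across the 33 genes, which share the same 6 arrays, Spearman's rho between change and length was 0.38, and across all genes 0.34. Of the 15 import genes under 600 bases, 1 rose and 6 fell, with a median change of -0.37, and of the 18 longer ones, 5 rose and 3 fell (median -0.04). Among all genes, 90 of 899 under 600 bases rose and 237 fell (median -0.17), and 1134 of 4550 longer ones rose and 855 fell (median 0.09). The 3′ to 5′ difference of 1.74 lay on the same arrays, and its part in the changes of the import genes was not tested.

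With the length trend removed, 7 import genes rose and 7 fell (18.4% and 19.7% of all genes), and the median change was -0.07. TOM22 then changed by -1.34, ERV1 by -1.26, PAM18 by -1.02, TIM23 by 1.28 and TIM50 by 0.88. These 5 genes passed, with adjusted p of at most 0.0228, and so did TOM40 (0.0172). TOM20, TIM21 and TOM71 no longer passed, and TIM10 (0.40, adjusted p = 0.0452) and SAM35 passed.

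**Figure D4:**
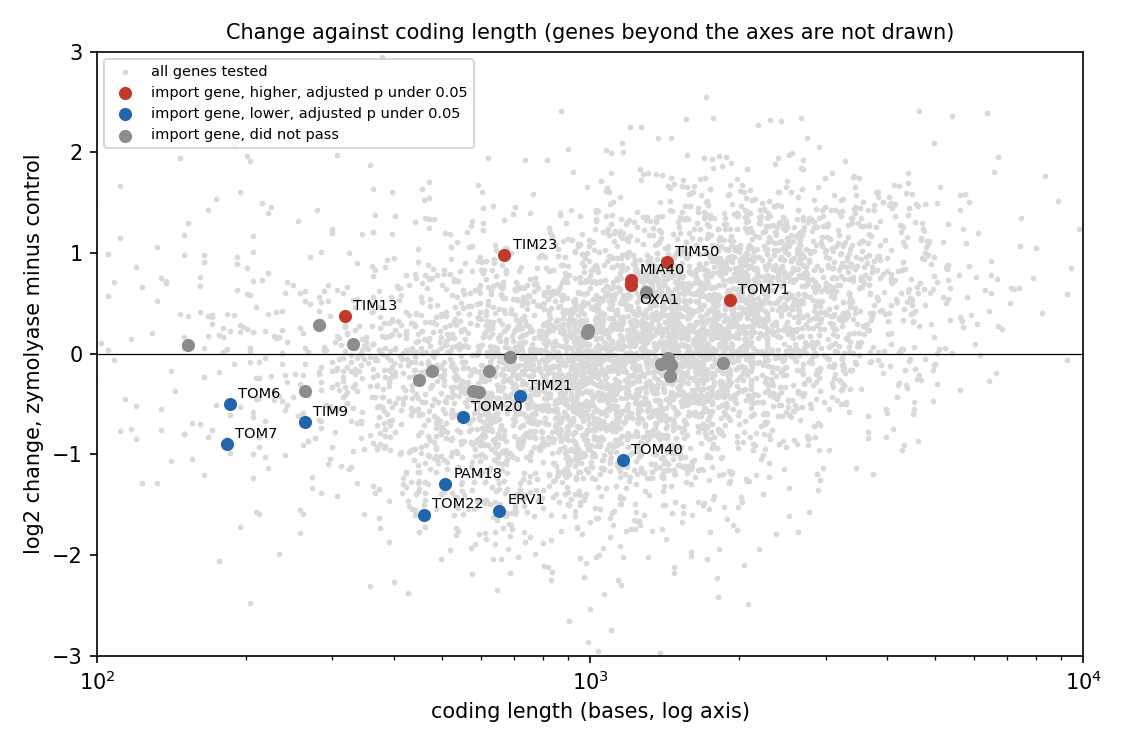
Log2 change (vertical axis) against coding length in bases (log axis) for the 33 import genes, coloured by call, over all genes tested in light grey. Of the 9 falls, 6 lie under 600 bases, and TOM40 is the only fall above 1000 bases.

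The arrays numbered 1 differed from the others in some import genes in both groups. Array 1 was the highest of its group in both control and zymolyase arrays for 10 of the 33 genes (27.8% of all genes) and the lowest in both for 6 (23.0% of all genes). MAS1 was higher on array 1 than the mean of arrays 2 and 3 by 0.98 in control and 0.44 in zymolyase arrays on the log2 scale. For TIM22 these differences were 0.77 and 0.51, for TIM44 0.67 and 0.59, for MAS2 0.62 and 0.28, and for TOM40 0.39 and 0.68. In the other direction, TIM50 was lower on array 1 by -0.41 and -0.60 and SAM37 by -0.32 and -0.35. Across the 33 genes the differences in control and in zymolyase arrays correlated at 0.47, and across all genes at 0.49. Without both arrays numbered 1, 7 import genes rose and 11 fell (32.6% and 28.3% of all genes), and TIM8, TIM44 and PAM17 were called in addition to the 15.

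**Figure D5:**
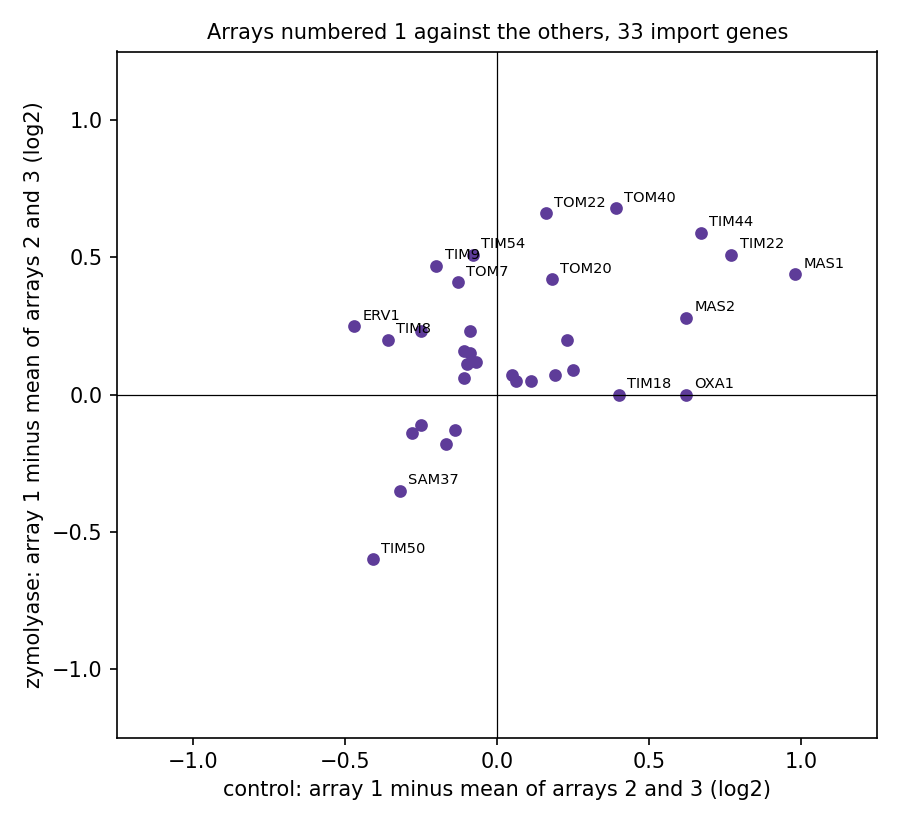
Log2 signal of array 1 minus the mean of arrays 2 and 3, in control (horizontal axis) and zymolyase (vertical axis) arrays, for each of the 33 import genes. MAS1, TIM22, TIM44 and TOM40 lie high in both groups and TIM50 low in both.

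Of 18 import genes that are essential for growth, 3 rose and 4 fell (median change -0.11), among them the falls of TOM40, PAM18 and ERV1. Of 13 that are not, 3 rose and 4 fell (median -0.37), while TOM22 and TIM54 were not classed. Those shares, 7 of 18 and 7 of 13, stand beside the 42.5% of all genes called. With the replicate block 5 essential genes rose and 4 fell, and 3 of those not essential rose and 5 fell. Under that block 31.2% of all genes rose and 27.3% fell.

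A further 47 genes of the import route, listed by role, gave 10 rises, 8 falls and 29 that did not pass (38.3% called, against 42.5% of all genes). With the replicate block 14 rose and 13 fell, where 31.2% and 27.3% of all genes did. The added genes were MDJ1, MDJ2, MSS2 and XDJ1, which rose, and CMC1, COX23, OM14, POR2 and SSQ1, which fell. Of the 6 processing peptidase genes of the matrix and inner membrane, 5 were called, beside 42.5% of all genes. IMP2 and IMP1, the catalytic subunits of the inner membrane peptidase, fell 3.49-fold (log2 change -1.80, SE 0.19) and 2.19-fold (-1.13, SE 0.20). ICP55, which trims the cut ends, and CYM1, which degrades cut presequences, rose by 0.76 each (SE 0.17), and OCT1, an octapeptidyl peptidase, by 0.50 (SE 0.15). With the length trend removed CYM1 and OCT1 no longer passed (adjusted p = 0.236 and 0.578, in ranges of 0.000864 to 0.236 and 0.00532 to 0.578). The call of OCT1 was also lost after median centring (0.0879) and on leaving out control array 2 or 3, or zymolyase array 2 or 3 (0.0814 to 0.125).

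Of 8 further genes of inner membrane insertion, 3 rose, 1 fell and 4 did not pass (50% called, against 42.5% of all genes). MBA1, a ribosome receptor that works beside OXA1, stood at 886, 694.5 and 856 in the controls and at 269, 134 and 162 after zymolyase. It fell 4.49-fold without overlap (log2 change -2.17, SE 0.27, adjusted p = 0.00112). MDM38 and YLH47, related inner membrane proteins, rose 2.22-fold and 1.92-fold (log2 changes 1.15 and 0.94), and BCS1, needed to insert the Rieske protein, rose 1.61-fold (0.69). The call of YLH47 was lost without control array 3 (0.053), and that of BCS1 without control array 2 (0.0547) or zymolyase array 3 (0.0562), in ranges from 1.03e-06 and from 0.000489.

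Clients and relatives of the MIA40 route gave 3 falls and 1 rise among 10, a share near the 42.5% of all genes called. CMC2, a cysteine-rich protein linked to cytochrome oxidase, fell 2.60-fold (log2 change -1.38, SE 0.17) and MIX17, a small protein of the same fold, 2.02-fold (-1.02, SE 0.16). COX19, of copper delivery to cytochrome oxidase, fell 1.43-fold at adjusted p = 0.0469, a call lost in 11 of the alternatives, and CMC4 rose 1.60-fold (adjusted p = 0.0208, lost without control array 2, 0.0784, or zymolyase array 3, 0.0887). The adjusted p of COX19 reached 0.144, and the call was lost without any one of the 6 arrays.

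Of 6 outer membrane biogenesis genes 2 were called, and of 3 genes of outer membrane channels and abundant proteins 2. Of 7 partners of the motor and translocase 1 was called, beside 42.5% of all genes. At the outer membrane OM45 rose 1.79-fold (log2 change 0.84, SE 0.17) and POR1, the main pore for metabolites, fell 1.38-fold (-0.47, SE 0.15). MIM2, which inserts helical proteins, and MDM10, shared by the SAM complex and the tether to the endoplasmic reticulum, rose by 0.62 (SE 0.16) and 0.64 (SE 0.20). The call of POR1 was lost on leaving out control array 1, 2 or 3, or zymolyase array 2 or 3 (adjusted p up to 0.129). It was also lost with the length trend removed (0.268), with all probe sets tested together (0.0786) and without an intensity trend (0.0513). That of MIM2 was lost without zymolyase array 2 or 3 (up to 0.0639) and after median centring (0.0626), and that of MDM10 on leaving out control array 1 or 2, or zymolyase array 2 or 3 (up to 0.127), after median centring (0.0661) and after quantile normalization (0.0559). SSC1, the mitochondrial Hsp70 of the motor, fell 1.36-fold (adjusted p = 0.0431), a call that needed each array other than zymolyase array 1 (adjusted p up to 0.136 without one of them) and that was also lost after quantile normalization (0.0762), with all probe sets tested together (0.0941) and without an intensity trend (0.0607). The call of SSC1 held with the length trend removed (log2 change -0.72, adjusted p = 0.00949) and with the replicate block (0.00987), in a range from 0.00228. None of 7 cytosolic delivery genes, among them YDJ1 and STI1, passed by limma (2 at an unadjusted p under 0.05). With the replicate block XDJ1 (adjusted p = 0.0177, in a range to 0.187) and OM14 (0.0131, in a range of 0.00324 to 0.278) passed, and OM14 also after median centring (0.0273) and quantile normalization (0.0495).

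Beside the import genes, 39 genes of the respiratory chain and ATP synthase gave 0 rises by limma (0 at an unadjusted p under 0.05) and 22 falls (56.4% called, median log2 change -0.63, median coding length 447 bases). The 65 mitochondrial ribosomal protein genes gave 7 rises and 17 falls (36.9% called, median -0.16, 714 bases). Import genes gave 6 rises and 9 falls (45.5% called), and all genes 22.5% rises and 20.0% falls. With the length trend removed the respiratory genes gave 1 rise and 19 falls (median -0.57), and the ribosomal protein genes 15 rises and 12 falls, so that their median turned to 0.09. With the replicate block these lists gave 3 rises and 25 falls, and 15 rises and 26 falls (31.2% and 27.3% of all genes). No test of the difference between these lists was run.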

How the data were processed

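RNA of 6 samples was measured on single-colour Affymetrix arrays from biotinylated cRNA (about 4 µg of RNA each, per the labels). The authors deposited 1 linear intensity per probe set, the MAS5 signal named in the submitters' processing notes; version, settings and detection calls are not given in the sources used here. The 2%-trimmed mean was 500.2 to 500.3 on every array, so arrays had been scaled alike. Signals were floored at 0.1 and taken to log2. Genes were named through the platform annotation and the R64 gene table. For 47 genes with several probe sets the brightest was used, giving 5449 genes without a filter on low values. Groups were compared with limma 3.58.1 in R 4.3.3 (lmFit, eBayes with an intensity trend, Benjamini-Hochberg over all genes), a procedure also tested on simulated data. Coding length is the gene length of that table, where 97.0% of protein-coding genes have a multiple of 3. All 33 members are named, with every array for those changed at least 2-fold, the 2 smallest p of each role, and TOM70 and TOM71; TIM44 and TIM17 were added after their values were seen. Of other route genes, up to 3 rises and 3 falls of each role are named. MIX17 and COA4 were listed under older names. Members, lists, pairs and alternatives were chosen with earlier results of these data known. Same-numbered arrays deviated together (correlations 0.49, 0.20 and 0.41, each over 0.1), though arrays 2 and 3 of different groups correlated as much as the arrays numbered 2 (0.20 and 0.23). Deviations were taken from the mean of each group, so those of arrays 2 and 3 depend on that of array 1. The labels state no pairing. The calls reported come from the fit without pairs, and the fit with the replicate number as a block is given where it changes a call. The number of arrays limits precision. Sequences were not used here.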

Additional observations from a re-analysis of the deposited data

How the results depend on the processing

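Of the 15 import genes called, 8 (ERV1, MIA40, PAM18, TIM23, TIM50, TOM22, TOM40 and TOM7) kept their call under all 17 alternatives, and none of the 15 changed sign. Leaving out 1 array in turn gave 3 to 6 import genes higher and 5 to 9 lower, with a median change from -0.22 to -0.03. Without control array 2, control array 3 or zymolyase array 3 it was 3 higher and 5 lower, and without zymolyase array 2 it was 4 and 5. Over all genes it gave 851 to 1350 higher and 740 to 1175 lower. After median centring 3 import genes were higher and the median was -0.27. With the replicate number as a block 8 were higher and 10 lower (31.2% and 27.3% of all genes). TIM10, TIM44 and PAM17 were added and no other call of an import gene changed. Genes that had not passed took the other sign as follows. Under median centring TOM5 was -0.07 and TIM12 -0.06. Under quantile normalization TIM12 was -0.04 and MGE1 0.06. With the length trend removed, with or without the replicate block, TIM22 was 0.14, TIM17 0.09 and MGE1 0.27. Leaving out 1 array in turn moved the log2 change of SAM50 from -0.20 to 0.02, of TIM22 from -0.34 to 0.09, of TIM54 from -0.21 to 0.10, of MGE1 from -0.12 to 0.05 and of MAS1 from -0.33 to 0.22. Without both arrays numbered 1 MAS1 was 0.08. The cause was not tested. With 3 arrays per group, changes that did not pass may still be present.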

Other observations

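The J protein genes MDJ1 and MDJ2 of the mitochondrial Hsp70 system, chosen after their values were seen, differed between the arrays numbered 1 and the others in both groups. MDJ1, the matrix co-chaperone for folding, had signals of 624, 1239 and 1195 on the control arrays and 947, 2778.5 and 3046 on the zymolyase arrays, with array 1 the lowest in each group. Its log2 change was 1.04 (SE 0.47, adjusted p = 0.107), and it passed with the replicate number as a block (adjusted p = 0.00224) and without zymolyase array 1 (0.00533), in a range of 9.16e-07 to 0.297. MDJ2, which is related to PAM18 of the import motor, had 16.4, 75.6 and 62.5 on the control arrays and 15.6, 333 and 229.6 on the zymolyase arrays. The values of both arrays numbered 1 were close to the background of at most 10.9. Its log2 change was 1.31 (SE 1.13, adjusted p = 0.38), and it passed with pairing by number (adjusted p = 0.0315, in a range of 7.81e-07 to 0.79).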
